A study of Homo sapiens with 18 samples.

Results

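The genes described here encode the enzymes and regulators with which a cell makes cholesterol and fatty acids. They are 31 of the 25435 gene symbols in the deposited count table, chosen by gene name and role: 7 enzymes of the mevalonate pathway and its acetyl-CoA supply, 10 enzymes of the squalene and sterol steps, 6 regulators or sterol carriers, and 8 enzymes of fatty acid synthesis and desaturation. The choice was made with earlier results of these data known, so shares of members beside shares of all genes are descriptions. All 31 were present, and all 31 passed the filter on low counts in each of the 10 comparisons made. RNA-Seq covered 18 libraries of HEK293doxERN2 cells, a human embryonic kidney line with a transgene for FLAG-tagged human ERN2 that doxycycline switches on. ERN2, also called IRE1β, is the epithelial paralogue of the endoplasmic reticulum (ER) stress sensor ERN1. The groups were No ERN2 (0 ng/mL doxycycline), Low ERN2 (10 ng/mL) and High ERN2 (100 ng/mL), each over 24 hr, and each was split into control (DMSO for 3 hr) and stress (thapsigargin at 200 nM for 3 hr, which blocks calcium uptake into the ER), with 3 libraries in every group. All groups carried the same transgene in the same line and grew in medium with serum. No group analysed here received doxycycline without the transgene, so doxycycline itself and ERN2 cannot be told apart. The labels do not say whether the 3 libraries of a group came from separate cultures, so p-values measure the spread between these libraries, which may be technical.

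Cholesterol is built from acetyl-CoA through mevalonate and squalene on the ER membrane, whereas long-chain fatty acids are assembled in the cytosol and then desaturated and elongated at the ER. Most of these genes are switched on by SREBP transcription factors, which are made as precursors in the ER membrane, escorted to the Golgi by SCAP when sterols are scarce, and held back in the ER by the INSIG proteins. IRE1 proteins cut the XBP1 mRNA and can also degrade other mRNAs that are translated at the ER, where many of the lipid enzymes are made.

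Sequence upstream of 5 members is shown because these genes carry the main patterns below: SREBF2 holds the only sterol element found among the members, INSIG1 and SCD had the largest falls among the members at high ERN2 in control cells, and HSD17B7 and STARD4 were the 2 members that thapsigargin raised at both no and low ERN2. Each run is RefSeq sequence of GRCh38.p14, 5′ to 3′ on the gene's strand, and stops before the gene's first base in GENCODE 29. Capitals mark the sterol element TCACNCCAC and the CCAAT box, which reads ATTGG where it lies on the other strand.
SREBF2, chr22:41832855-41833078, plus strand: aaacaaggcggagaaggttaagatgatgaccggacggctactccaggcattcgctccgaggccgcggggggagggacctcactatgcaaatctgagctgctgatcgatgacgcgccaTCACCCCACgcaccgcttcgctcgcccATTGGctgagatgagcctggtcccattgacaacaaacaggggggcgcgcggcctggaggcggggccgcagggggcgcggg
INSIG1, chr7:155297628-155297775, plus strand: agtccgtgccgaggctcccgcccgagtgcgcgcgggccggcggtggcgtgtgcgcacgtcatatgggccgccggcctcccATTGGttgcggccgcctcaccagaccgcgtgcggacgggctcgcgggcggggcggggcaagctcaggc
SCD, chr10:100346983-100347123, plus strand: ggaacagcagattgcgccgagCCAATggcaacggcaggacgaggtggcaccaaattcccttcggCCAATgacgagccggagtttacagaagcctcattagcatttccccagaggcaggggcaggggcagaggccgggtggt
HSD17B7, chr1:162790452-162790701, plus strand: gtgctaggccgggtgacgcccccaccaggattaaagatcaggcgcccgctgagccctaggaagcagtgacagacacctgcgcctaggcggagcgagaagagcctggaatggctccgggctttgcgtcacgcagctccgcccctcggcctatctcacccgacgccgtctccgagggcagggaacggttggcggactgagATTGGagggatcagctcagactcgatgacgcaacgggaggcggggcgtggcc
STARD4, chr5:111512591-111512785, minus strand: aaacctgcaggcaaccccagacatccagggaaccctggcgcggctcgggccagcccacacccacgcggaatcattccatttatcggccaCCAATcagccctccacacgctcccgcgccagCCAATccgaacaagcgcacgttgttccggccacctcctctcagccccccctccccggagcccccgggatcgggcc

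The promoter table covered 27 members with 37 windows, each from 250 bases before to 50 after a RefSeq start, and ACAT2, FDFT1, SQLE and FASN were not matched. The sterol element, searched as TCACNCCAC on both strands, was in 1 window, that of SREBF2, where it began 133 bases before the start. That is 2.70% of the members' windows, against 1.13% of the 35116 windows of all genes. CCAAT was in 22 of the 37 windows, or 59.5%, against 34.6% of all windows. It lay in at least 1 window of 19 of the 27 members, among them INSIG1 at 170 bases before the start, and SREBF2 at 106. In STARD4 it occurred at 161 and 130 bases. The core of the ER stress element, CCACG, was in 62.2% of the members' windows, 38.1% of all windows and 47.2% of the 15935 windows of tested genes. The E-box CACGTG was in 8.11%, 7.26% and 9.0% of these, with LSS, SCAP and INSIG1 as the members. Over windows of tested genes CCAAT was in 34.2% and the sterol element in 1.0%. The core and the E-box share letters where CCACGTG occurs. A match describes letters in these windows and is not evidence of binding.

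Between 14876416 and 24652240 reads were counted per library. ERN2 lay at 6.57 to 9.10 CPM (counts per 1e6 reads, scaled by TMM) in the No ERN2, control libraries. In control cells it was at 22.6 to 55.9 with 10 ng/mL and at 248.7 to 309.3 with 100 ng/mL, so the doses followed their labels. Under thapsigargin it was at 10.35 to 14.2 CPM without doxycycline and 174.9 to 271.9 with 100 ng/mL. With 10 ng/mL it was uneven there, at 32.1, 53.9 and 111.5 CPM in replicates 1 to 3, and overlapped Low ERN2, control. HSPA5, the ER chaperone BiP, was at 468 to 536 CPM in the No ERN2, control libraries and 3046 to 4773 in the No ERN2, stress libraries. One label says that RNA was extracted from colon crypt cells. All 6 markers of HEK293 cells were over 1 CPM in the median library, against 3 of 10 colon markers. CDX1, VIL1, KRT20 and MUC2 reached at most 0.243 CPM in any library, whereas CDX2, an intestinal transcription factor of the same list, was at 3.36 to 8.83. The summed level of the colon list ran from 21.6 to 59.4 CPM, mostly from LGR5 and EPCAM. That sum was 41.4 to 59.4 CPM in No ERN2, control and 30.4 to 41.2 in High ERN2, control, and 43.2 to 49.0 against 21.6 to 42.9 under thapsigargin. The sums did not overlap in either state, none of the 3 or 4 colon markers with enough reads passed the test, and their part in the results below was not tested. None of 4 hepatocyte markers and 1 of 4 adipocyte markers was over 1 CPM. In bulk RNA, fewer cells of a type and less RNA per cell cannot be told apart.

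Without ERN2 induction or thapsigargin, levels per kilobase of exon ran from 0.528 CPM per kb for SREBF1 to 97.2 for ACLY. FASN had 88.4, SCD 79.3 and LBR 61.3 CPM per kb. The regulators were lower than these enzymes, with 34.6 CPM per kb for SREBF2, 23.4 for INSIG1, 14.3 for SCAP and 3.21 for INSIG2. SREBF1, the gene of SREBP1, had 25 to 165 counts per library and SREBF2, the gene of SREBP2, had the higher level per kb of the SREBP genes. HSD17B7, a ketoreductase of the sterol steps, was at 2.18 CPM per kb.

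**Figure D1:**
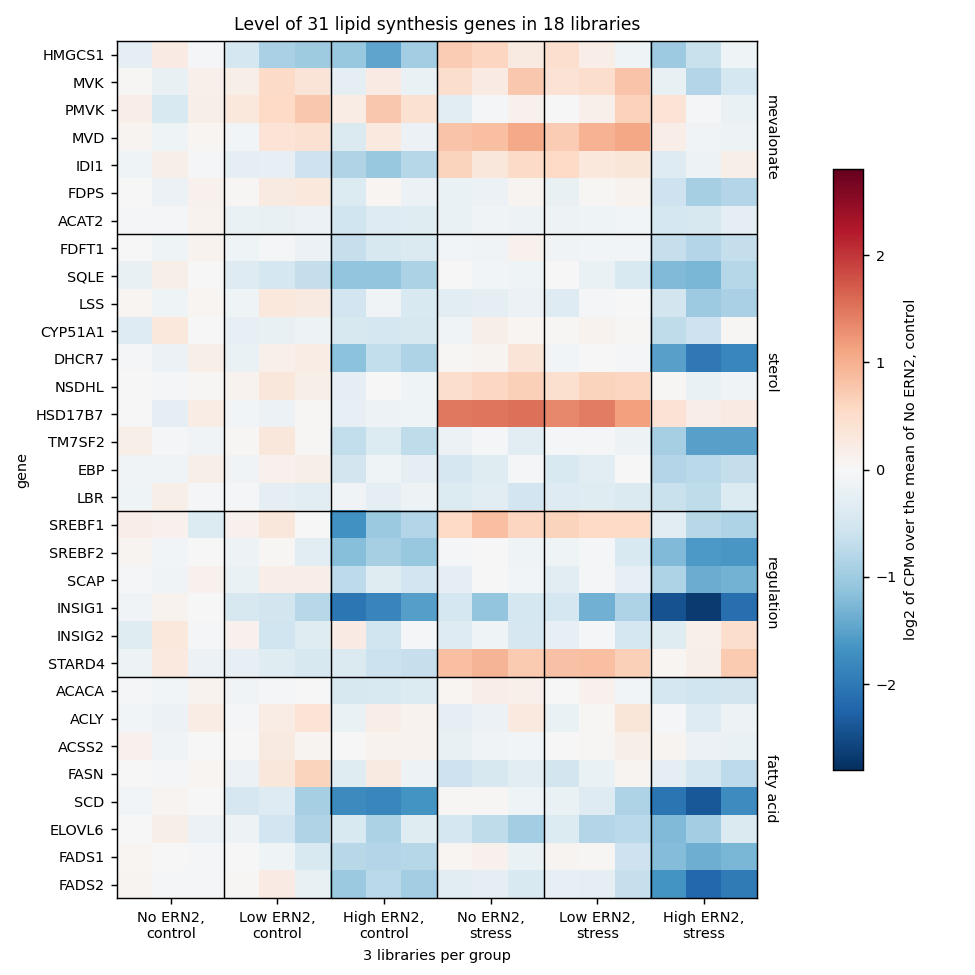
Level of the 31 members in the 18 libraries, as log2 of CPM over the gene's mean in No ERN2, control; rows are genes by role and columns are libraries by group, with blue lower and red higher. INSIG1 and SCD are darkest blue in both High ERN2 groups, and HSD17B7 is darkest red in the No and Low ERN2, stress groups.

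The comparison of High with No ERN2 in control cells asks what strong induction of ERN2 did to lipid synthesis genes in the absence of another stress. Of the 31 members 14 fell and none rose, beside 7.49% of all 14444 genes tested that fell. The strongest falls were those of INSIG1, which retains the SCAP-SREBP complex in the ER, and SCD, the desaturase that makes oleate. Both SREBP genes and SCAP fell with them. The median log2 fold change was -0.50 over the members and -0.01 over all genes. PMVK alone leaned upward at an unadjusted p under 0.05 (log2 fold change 0.44, SE 0.191, adjusted p = 0.153). DESeq2 also called no member higher, with 17 lower, beside 6.33% of all gene symbols in either direction.

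Among the regulators 4 of 6 fell. INSIG1 was at 79.5, 92.1 and 84.8 CPM in the No ERN2, control libraries and at 21.1, 23.7 and 29.5 in the High ERN2, control libraries, so the highest library at the high dose lay far under the lowest without doxycycline. Its log2 fold change was -1.83 (SE 0.141, adjusted p = 2.29e-06, edgeR's quasi-likelihood test with Benjamini-Hochberg adjustment, as for each adjusted p below). SREBF2 went from 277, 249 and 258 CPM to 115, 138 and 124, a log2 fold change of -1.10 (SE 0.109, adjusted p = 1.95e-05). SREBF2 encodes SREBP2, the main activator of sterol synthesis genes. SREBF1 was at 4.85, 4.61 and 3.26 CPM against 1.30, 2.06 and 2.39, a difference resting on 25 to 97 counts per library (log2 fold change -1.18, SE 0.26, adjusted p = 0.008). SCAP, the escort of the SREBP precursors, was at 89.5, 86.7 and 100.6 CPM against 55.1, 73.0 and 64.0 (log2 fold change -0.57, adjusted p = 0.00967), close to the threshold. INSIG2, the second INSIG gene, had a log2 fold change of -0.14 (SE 0.212, adjusted p = 0.707), and its libraries overlapped. STARD4, which carries sterols between membranes, had -0.59 (SE 0.146, adjusted p = 0.0162).

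In the mevalonate pathway 2 of 7 enzymes fell. HMGCS1, the HMG-CoA synthase that opens the pathway, was at 234, 326 and 273 CPM without doxycycline and 134, 100.1 and 141 at the high dose (log2 fold change -1.20, SE 0.148, adjusted p = 0.00011). IDI1, which isomerizes isopentenyl diphosphate, went from 125, 151 and 131 CPM to 75.8, 64.7 and 77.4 (log2 fold change -0.94, adjusted p = 0.000103). Both genes were lower in every High ERN2 library. The kinases MVK and PMVK, the decarboxylase MVD and farnesyl diphosphate synthase FDPS had log2 fold changes between -0.19 and 0.44, none past the threshold. ACAT2, the cytosolic thiolase that supplies acetoacetyl-CoA, had -0.45 (adjusted p = 0.0116).

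Of the 10 squalene and sterol enzymes 4 fell, and all 10 had negative log2 fold changes. SQLE, the squalene epoxidase, was at 145, 186 and 168 CPM against 77.8, 77.8 and 90.4 (log2 fold change -1.07, SE 0.12, adjusted p = 5.22e-05). DHCR7, the last reductase on the way to cholesterol, was at 99.7, 90.8 and 114 CPM against 46.0, 63.0 and 56.2 (log2 fold change -0.92, SE 0.14, adjusted p = 0.000544). These were the largest differences of the group. FDFT1, the squalene synthase, was at 179, 162 and 190.4 CPM against 112, 130.2 and 134 (adjusted p = 0.00554), and TM7SF2, a sterol C14 reductase, at 47.6, 40.98 and 39.7 against 26.4, 33.0 and 26.2 (adjusted p = 0.00877). LBR, a lamin B receptor that also has sterol C14 reductase activity, had a log2 fold change of -0.21 (SE 0.106, adjusted p = 0.216). LSS, CYP51A1, NSDHL, HSD17B7 and EBP ranged from -0.50 to -0.16 and did not pass.

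Of the 8 fatty acid genes 4 fell. All 3 desaturases were among them. SCD was at 400.3, 446 and 429 CPM against 124, 120 and 133 (log2 fold change -1.80, SE 0.101, adjusted p = 2.27e-07). FADS1, the delta-5 desaturase, was at 306, 297 and 286 CPM against 172, 167 and 171 (log2 fold change -0.84, adjusted p = 4.63e-05). FADS2, the delta-6 desaturase next to it on chromosome 11, was at 188, 170.4 and 174 CPM against 86.2, 105 and 89.9 (log2 fold change -0.96, adjusted p = 7.14e-05). Among the enzymes that make the chain, ACACA, the acetyl-CoA carboxylase, had the only call, from 164, 158 and 179 CPM to 122, 124 and 128 (log2 fold change -0.46, adjusted p = 0.00708). ACLY and ACSS2, which make acetyl-CoA, were at 0.00 (SE 0.13) and 0.03 (SE 0.121), and FASN, the fatty acid synthase, at -0.09 (SE 0.139). ELOVL6, the elongase of palmitate, had -0.57 (SE 0.157, adjusted p = 0.0275). The difference between the desaturases and the other enzymes was not tested.

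The count of 14 depended on the libraries used. Without High ERN2, control replicate 1 it was 9, and the 6 fits with 1 library removed gave 9 to 16. Of all genes 8.64% were called without that replicate, against 8.33% in the fit reported. Over the 13 alternative fits, INSIG1, SCD, SREBF2, SQLE, DHCR7, HMGCS1, IDI1, FADS1 and FADS2 passed in every one, whereas SCAP and TM7SF2 passed in 5 each.

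**Figure D2:**
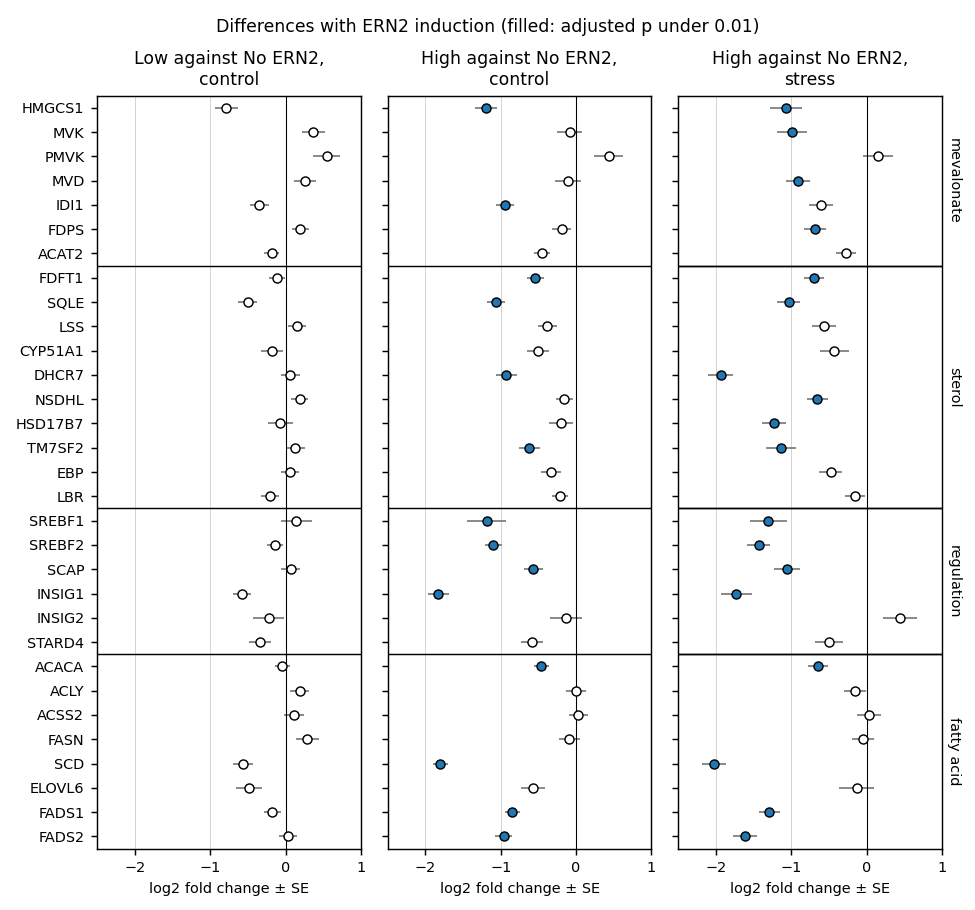
Log2 fold change of each member with its standard error for Low against No ERN2 in control cells, and High against No ERN2 in control and in stress cells; filled points had an adjusted p under 0.01. In the High ERN2 panels 14 and 18 members are filled, all to the left of 0, and in the Low ERN2 panel none is.

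At the low dose, 0 of the 31 members passed against No ERN2 in control cells by edgeR, as 0.193% of all genes did. DESeq2 called 4 lower, beside 1.5% of all gene symbols in either direction. At an unadjusted p under 0.05 there were 9 members, against 30.5% of all genes. These 4 were HMGCS1, SQLE, INSIG1 and SCD, which are also among the members that fell at the high dose. HMGCS1 was at 198, 147 and 139 CPM in the Low ERN2, control libraries, each below each of the No ERN2 libraries (log2 fold change -0.79, SE 0.152, adjusted p = 0.0324). INSIG1 was at 62.3, 60.2 and 49.8 CPM (log2 fold change -0.58, SE 0.122, adjusted p = 0.0519), and SCD at 308, 332 and 223 CPM (log2 fold change -0.57, SE 0.133, adjusted p = 0.0703). Neither overlapped the No ERN2 libraries. The comparison with No ERN2 at the high dose uses the same No ERN2 libraries, so the 2 sets of values are not independent. Without Low ERN2, control replicate 1, 6 members passed, 5 lower and 1 higher, together with 18.8% of all genes.

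GC content moved with the low-dose values. The GC content of the longest transcript ran from 34.2% for STARD4 to 65.3% for FASN, with a median of 50.5% over the members. Across the 31 members its correlation with the log2 fold change of Low against No ERN2 was 0.73, and 0.63 over all genes tested that had a value. The points share these 6 libraries, so these are descriptions. The 15 GC-rich members had a median log2 fold change of 0.14 and the 15 GC-poor members -0.23. For High against No ERN2 the correlation over members was 0.16 in control cells and -0.22 under thapsigargin. It was -0.38 for High against Low ERN2 in control cells, and 0.35 for Low against No ERN2 under thapsigargin. For thapsigargin against control it was -0.09, -0.46 and -0.56 at no, low and high ERN2. For the interactions of dose and thapsigargin, tested below, it was -0.74 at low and -0.55 at high ERN2. Over all genes these interactions had -0.50 and -0.52. When each library's smooth trend on GC was taken out as an offset, a step chosen after seeing the data, HMGCS1 passed at the low dose (log2 fold change -0.50, adjusted p = 0.00901). The same step at the high dose gave 18 members lower, with all 14 kept, beside 14.0% of all genes in either direction.

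From the low to the high dose in control cells, 5 members fell and none rose, beside 2.43% of all genes that fell. INSIG1 (log2 fold change -1.24), SCD (-1.22), FADS2 (-0.98), DHCR7 (-0.97) and SREBF2 (-0.95) passed, with adjusted p from 0.00285 to 0.00416. DHCR7, at 89.9, 113 and 117 CPM with the low dose, and FADS2, at 182, 207 and 154, had log2 fold changes of 0.06 (SE 0.129) and 0.03 (SE 0.117) between the low dose and none. SREBF2 was at 237, 266 and 211 CPM with the low dose. INSIG1 and SCD did not overlap between the low dose and none, by the values given above. Without Low ERN2, control replicate 2, High ERN2, control replicate 1 or High ERN2, control replicate 3, 0 members passed. Of all genes these fits called 0.0611%, 0.143% and 0.0%, against 2.45% in the fit reported. The loss of calls was thus not particular to the members. With the GC trend taken out 14 passed, all lower, beside 5.6% of all genes in either direction.

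**Figure D3:**
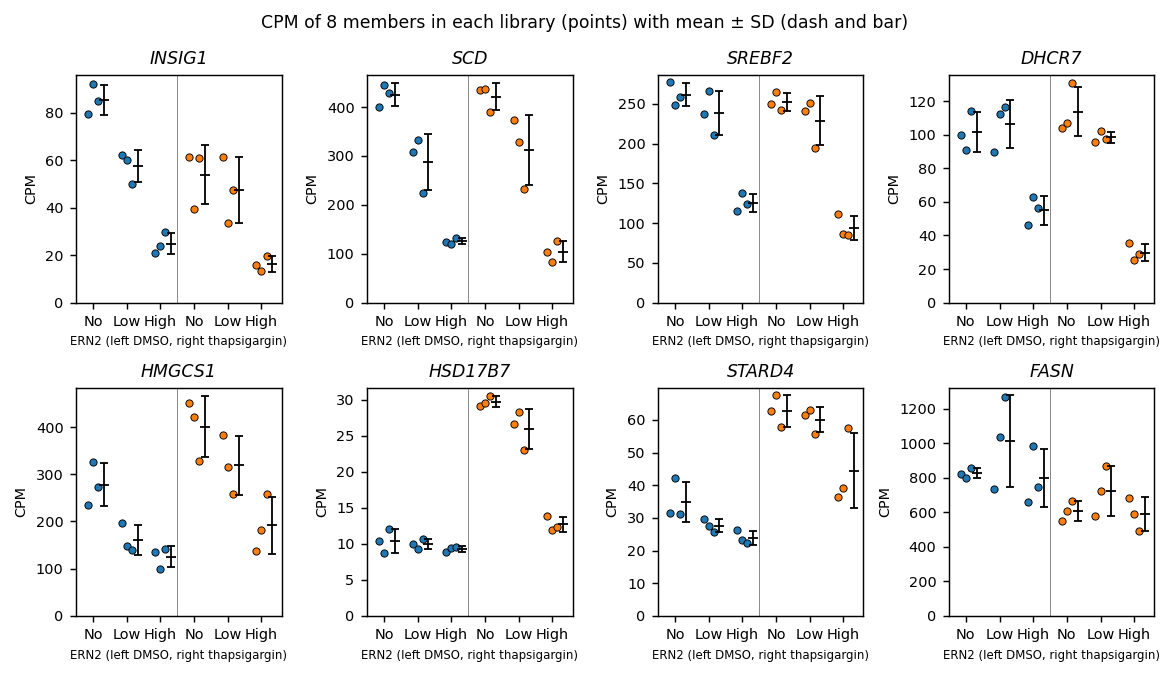
CPM of 8 members in every library, with No, Low and High ERN2 from left to right in DMSO (blue) and thapsigargin (orange); points are libraries, and dashes with bars are the mean ± SD of 3. INSIG1, SCD, SREBF2 and DHCR7 are lowest in the High ERN2 groups, HSD17B7 and STARD4 are raised by thapsigargin without ERN2, and FASN overlaps between No and High ERN2.

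Under thapsigargin the same comparison of High with No ERN2 used other libraries. There 18 of the 31 members fell and none rose, beside 9.0% of all genes that fell, and the median log2 fold change was -0.69 over the members and 0.04 over all genes. DESeq2 called 19 lower and 0 higher, beside 9.11% of all gene symbols in either direction. By edgeR 0 members leaned upward at an unadjusted p under 0.05. Of the 14 members that fell in control cells 13 fell here too, which are 92.9% of the control list and 72.2% of this one. IDI1 was the exception, at 210.3, 169 and 197 CPM without doxycycline and 105, 122 and 152 at the high dose (log2 fold change -0.61, adjusted p = 0.0172). MVK, MVD, FDPS, NSDHL and HSD17B7 passed here and not in control cells, and the test of that difference is the interaction below.

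SCD had the largest difference, from 436, 438 and 389 CPM to 104, 82.7 and 125 (log2 fold change -2.03, SE 0.161, adjusted p = 5.86e-06). DHCR7 followed, from 104, 107 and 131 CPM to 35.4, 25.4 and 28.7 (log2 fold change -1.93, SE 0.167, adjusted p = 1.01e-05). Neither gene overlapped between the groups. INSIG1 was at 61.1, 39.5 and 60.8 CPM against 15.7, 13.4 and 19.7 (log2 fold change -1.73), and FADS2 at 144, 147 and 132 against 55.8, 38.4 and 44.7 (log2 fold change -1.61). SREBF2 was at 249.8, 265 and 242 CPM against 111, 85.8 and 84.4 (log2 fold change -1.43, SE 0.151, adjusted p = 3.5e-05). FADS1 was at 308, 322 and 259 CPM against 127, 115 and 123 (log2 fold change -1.29). For these 4 genes too the groups did not overlap. SREBF1, at 6.23, 7.63 and 6.44 against 3.42, 2.46 and 2.32 CPM, and SCAP, at 77.1, 90.9 and 86.9 against 50.5, 35.4 and 36.6, completed the regulators that fell. Their log2 fold changes were -1.30 (adjusted p = 0.00253) and -1.06 (adjusted p = 0.000826).

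Among the sterol enzymes, HSD17B7 was at 29.2, 29.5 and 30.6 CPM without doxycycline and 13.9, 11.9 and 12.3 at the high dose (log2 fold change -1.23, SE 0.161, adjusted p = 0.00018). TM7SF2 went from 38.1, 42.0 and 34.3 CPM to 22.4, 15.0 and 14.8 (-1.13), and SQLE from 167, 159 and 153 to 70.2, 68.8 and 95.7 (-1.03). TM7SF2 and SQLE had also fallen in control cells. FDFT1 went from 169, 166 and 192 CPM to 113, 99.6 and 112 (-0.70), and NSDHL, a C4 decarboxylase, from 82.0, 87.0 and 92.4 to 60.1, 51.6 and 54.4 (-0.66). In the mevalonate pathway HMGCS1 went from 452, 422 and 328 CPM to 138, 182 and 257 (-1.07, adjusted p = 0.00302), and MVK from 23.3, 19.5 and 28.2 to 14.3, 9.44 and 11.9 (-0.99, adjusted p = 0.00383). MVK, the mevalonate kinase, was the least abundant of the pathway enzymes that passed, with 134 to 495 counts per library in these groups. MVD went from 58.1, 59.4 and 69.0 CPM to 38.0, 31.05 and 29.95 (-0.91), and FDPS from 133, 135 and 159 to 101, 79.1 and 85.2 (-0.69). ACACA went from 174, 189 and 184 CPM to 119, 114 and 117 (-0.65). ACLY, ACSS2, FASN and ELOVL6 had log2 fold changes from -0.15 to 0.03 with adjusted p of 0.494 or more, and were not called.

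The count again depended on the libraries. Without High ERN2, stress replicate 2, which had the lowest total of all libraries, 8 members passed, and without No ERN2, stress replicate 1, 11 passed. Of all genes these fits called 5.23% and 6.01%, against 10.5% in the fit reported. With the GC trend taken out 21 passed, with all 18 among them, beside 18.3% of all genes. Over the 13 alternative fits SCD, DHCR7, INSIG1, FADS1, FADS2, SREBF2, SQLE and HSD17B7 passed in every one.

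Low against No ERN2 under thapsigargin gave 0 members called by edgeR and 0 by DESeq2, and 0.0% of all genes were called by edgeR. Even the induced ERN2 was not called by edgeR, at a mean of 65.9 against 12.2 CPM without overlap (log2 fold change 2.42, adjusted p = 0.292). The 0 therefore cannot show that the members were unchanged. At an unadjusted p under 0.05 there was 1 member, against 4.22% of all genes. In this comparison same-numbered libraries deviated from their group means together. With the replicate number as a block, 3 members passed and 3.89% of all genes: HMGCS1 (log2 fold change -0.35, adjusted p = 0.000169) and SCD (-0.47, adjusted p = 0.000117) were lower, and FASN (0.23, adjusted p = 0.00899) was higher. HMGCS1 was at 383, 316 and 257 CPM in Low ERN2, stress replicates 1 to 3, and SCD at 373, 329 and 233, each below the same-numbered No ERN2 library. FASN, at 581, 724 and 872 CPM, lay above it in each pair. ERN2 was at 32.1, 53.9 and 111.5 CPM in the same Low ERN2 libraries, and the part of this uneven level was not tested. With the block and the GC trend taken out together, HMGCS1 and SCD passed and FASN did not.

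Thapsigargin without ERN2 induction asks how these genes responded to 3 hr of ER calcium depletion. HSD17B7, MVD, STARD4, NSDHL and IDI1 rose, 5 of 31, beside 6.45% of all genes that rose. INSIG1, ELOVL6 and FASN fell, 3 of 31, beside 4.74% of all genes that fell. Those that rose were 2 mevalonate enzymes, 2 sterol enzymes and a sterol carrier, and those that fell were 2 fatty acid enzymes and a regulator. HSD17B7 had the largest change, from 10.4, 8.74 and 12.1 CPM in control to 29.2, 29.5 and 30.6 (log2 fold change 1.52, SE 0.143, adjusted p = 1.54e-05). MVD, the mevalonate diphosphate decarboxylase, went from 35.0, 30.4 and 34.3 CPM to 58.1, 59.4 and 69.0 (log2 fold change 0.91, SE 0.119, adjusted p = 0.0002). STARD4 went from 31.5, 42.1 and 31.1 CPM to 62.6, 67.5 and 57.7 (log2 fold change 0.85, SE 0.138, adjusted p = 0.000925). These genes separated the groups fully. NSDHL went from 58.8, 56.7 and 59.7 CPM to 82.0, 87.0 and 92.4 (log2 fold change 0.59, adjusted p = 0.00173), and IDI1 from 125, 151 and 131 to 210.3, 169 and 197 (log2 fold change 0.51, adjusted p = 0.00669). HMGCS1, which did not pass, had 0.54 (SE 0.142, adjusted p = 0.0162). INSIG1 went down from 79.5, 92.1 and 84.8 CPM to 61.1, 39.5 and 60.8 (log2 fold change -0.66, SE 0.153, adjusted p = 0.00822). ELOVL6 went from 30.2, 34.0 and 27.4 CPM to 21.8, 18.7 and 15.6 (-0.70, adjusted p = 0.00493), and FASN from 824, 801 and 857 to 551, 608 and 668 (-0.43, adjusted p = 0.00891). SREBF2 (-0.04, SE 0.097), SQLE (-0.05) and SCD (0.00, SE 0.1) were close to 0. None of the 3 falls was called without No ERN2, control replicate 1 (3 members, all higher), No ERN2, control replicate 2 (6, all higher) or No ERN2, stress replicate 2 (5, all higher), or with all 6 groups in the fit (4, all higher). Of all genes those fits called 5.02%, 7.8%, 6.84% and 8.47%, in that order, against 11.2% in the fit reported. Without No ERN2, control replicate 3 or No ERN2, stress replicate 1, 4 members were higher and 1 lower. The shares of all genes there were 6.32% and 6.22%. Over the 13 alternative fits INSIG1 and FASN passed in 7 each and ELOVL6 in 9.

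HSD17B7 has 2 annotated pseudogenes, and reads could be split with them. HSD17B7P2, which the count table lists, was at 1.79 to 2.55 CPM in No ERN2, control and 13.4 to 17.9 in No ERN2, stress, which is a log2 fold change of 2.74 (adjusted p = 1.32e-06). It was at 3.73 to 6.05 CPM in High ERN2, stress. The level of HSD17B7 is uncertain to that extent.

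At low ERN2, HSD17B7 and STARD4 rose with thapsigargin and no member was called lower in this fit, 2 of 31 beside 1.16% of all genes that rose. HSD17B7 went from 9.95, 9.28 and 10.6 CPM to 26.6, 28.4 and 22.97 (log2 fold change 1.38, SE 0.145, adjusted p = 0.000715), and STARD4 from 29.7, 27.4 and 25.7 to 61.4, 62.9 and 55.8 (log2 fold change 1.12, SE 0.123, adjusted p = 0.00095). HMGCS1 (0.98, adjusted p = 0.012), IDI1 (0.74, adjusted p = 0.0118) and MVD (0.66, adjusted p = 0.0383) had positive values without passing. Without Low ERN2, control replicate 2, 0 members passed, without Low ERN2, stress replicate 2, 1 passed, and without Low ERN2, stress replicate 3, 4 passed. Of all genes these fits called 0.188%, 0.385% and 3.32%, against 1.45% in the fit reported.

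At high ERN2, edgeR called 0 of the 31 members between thapsigargin and control, beside 0.201% of all genes. At an unadjusted p under 0.05 there were 16 members, against 27.0% of all genes. DESeq2 called 4, of which 2 were higher and 2 lower, beside 2.87% of all gene symbols. STARD4 was at 36.5, 39.3 and 57.6 CPM with thapsigargin and 26.2, 23.1 and 22.3 without (log2 fold change 0.92, SE 0.19, adjusted p = 0.0338). IDI1 had 0.82 (SE 0.161, adjusted p = 0.0296). On the other side, FADS2 had -0.99 (SE 0.167, adjusted p = 0.0181) and DHCR7 -0.86 (SE 0.178, adjusted p = 0.0338). HSD17B7 was at 8.87, 9.47 and 9.62 CPM in control and 13.9, 11.9 and 12.3 with thapsigargin, which do not overlap (log2 fold change 0.47, SE 0.167, adjusted p = 0.122). These values turned on High ERN2, stress replicate 1: without it 11 members passed, 3 higher and 8 lower, and 17.6% of all genes. In that library the GC-rich members lay 0.35 above the GC-poor ones as a difference of median deviations from the group mean on the log2 scale, and in replicate 3 that difference was -0.38. With the GC trend taken out 5 members passed, together with 5.18% of all genes.

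**Figure D4:**
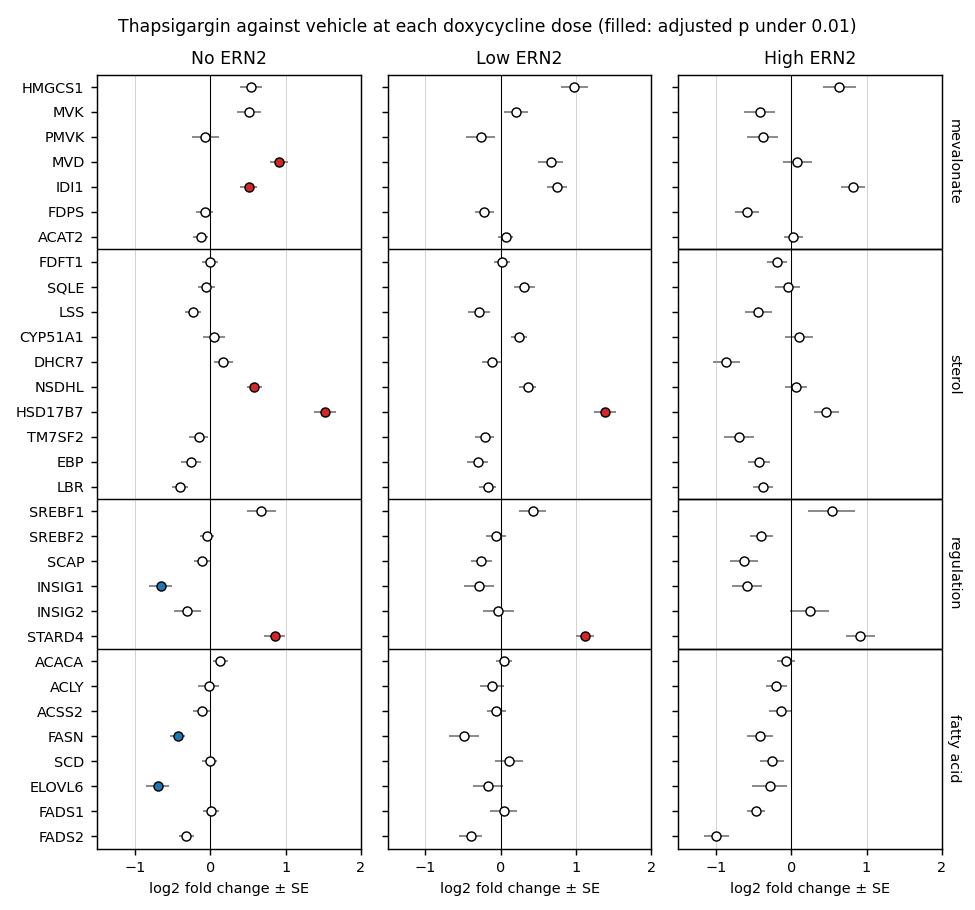
Log2 fold change of each member, with its standard error, for thapsigargin against DMSO at No, Low and High ERN2; filled points had an adjusted p under 0.01. HSD17B7 and STARD4 are filled red at No and Low ERN2, and no point is filled at High ERN2.

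Whether the response to thapsigargin differed by dose was tested as an interaction. For high ERN2 edgeR called 0 of 31 members, beside 0.0406% of all genes. At an unadjusted p under 0.05 there were 8 of 31 members, close to the share over all genes, 24.7% in either direction. All 8 were negative, and no negative share over all genes was taken for comparison. HSD17B7 had the largest difference, with a log2 response of 1.52 without ERN2 and 0.47 at high ERN2 (interaction -0.97, SE 0.195, adjusted p = 0.0324). DHCR7 had responses of 0.17 and -0.86 (interaction -0.95, SE 0.207, adjusted p = 0.0454). DESeq2 called both genes (adjusted p = 0.000282 and 0.00163), and so did edgeR with the GC trend taken out (adjusted p = 0.00772 and 0.00609). MVK (-0.84, adjusted p = 0.0893), MVD (-0.75, adjusted p = 0.0862) and FADS2 (-0.59, adjusted p = 0.092) came next. DHCR7, MVK, MVD and FADS2 have 58.2% to 63.7% GC, and HSD17B7 has 41.7%. The correlation of this interaction with GC was -0.55 over members and -0.52 over all genes. Without High ERN2, stress replicate 1, 3 members passed, beside 8.6% of all genes. Among the stress markers HSPA5, HERPUD1 and XBP1 responded less at high ERN2. HSPA5 was at 859.5 to 965 CPM in High ERN2, control and 1922 to 2244 in High ERN2, stress. Its interaction was -1.58 (adjusted p = 0.00898), that of HERPUD1 -1.21 (adjusted p = 0.00741) and that of XBP1 -2.14 (adjusted p = 1.2e-06). DNAJB9 (-1.96, adjusted p = 0.0101), DDIT3 (-1.32, adjusted p = 0.0101) and ATF4 (-0.30, adjusted p = 0.374) did not pass. The part of this weaker response in the members' values was not tested. For low ERN2 edgeR and DESeq2 each called 0 members, beside 0.0% of all genes by edgeR, and 0 members had an unadjusted p under 0.05, against 4.47% of all genes. The falls in MVK, MVD, FDPS and NSDHL at high ERN2 under thapsigargin, which did not pass in control cells, are therefore not shown to differ between the states.

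Membrane segments in the encoded proteins were not used to choose the members. Coding sequences of GENCODE 29 were translated and scanned for windows of 19 residues with a mean Kyte-Doolittle hydropathy over 1.6, a simple mark of stretches that can span a membrane. By this count 23 of the 31 proteins had at least 1 such segment, from 1 to 9, the latter in SCAP. The other 8 were HMGCS1, PMVK, MVD, IDI1, FDPS, LSS, STARD4 and ACLY. At high ERN2 in control cells 12 of the 23 and 2 of the 8 fell. Over all genes with a coding sequence, 20.5% of those with a segment and 1.90% of those without fell. Under thapsigargin 15 of the 23 and 3 of the 8 fell, against 24.1% and 2.51% of all genes. The members without a segment that fell were HMGCS1 and IDI1 in control cells, and HMGCS1, MVD and FDPS under thapsigargin. In both states the median log2 fold change of the 8 members, -0.29 and -0.59, lay below that of all genes without a segment, 0.04 and 0.14. The scan is blunt: FASN and ACACA, which are soluble or loosely bound, each scored 1, and LSS, which sits on one face of the membrane, scored 0.

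**Figure D5:**
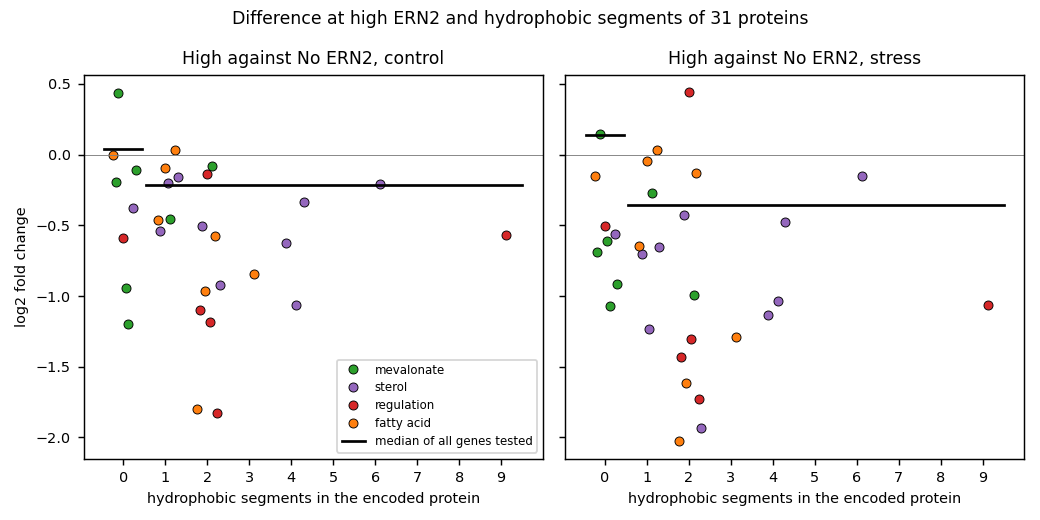
Log2 fold change of the 31 members (points, coloured by role) against the number of hydrophobic segments in the encoded protein, for High against No ERN2 in control and in stress cells; lines are the medians of all genes tested with 0 segments and with at least 1. Most members lie below both lines, and INSIG1 and SCD, with 2 segments each, are among the lowest.

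Other genes of the same pathways were read from lists by role, which were chosen with earlier results of these data known. Of all genes tested, 7.49% fell at high ERN2 in control cells and 9.0% under thapsigargin. Of 14 further genes of sterol synthesis, uptake and transport 12 were tested, and 7 fell at high ERN2 in control cells and 5 under thapsigargin. NPC2, the lysosomal sterol carrier, fell the most, from a mean of 38.2 CPM to 5.86 in control cells (log2 fold change -2.74, SE 0.145, adjusted p = 1.8e-07). Among genes that process SREBP or degrade sterol enzymes, MBTPS1, the site-1 protease that cuts SREBP in the Golgi, fell in control cells (log2 fold change -0.75) and under thapsigargin (-1.11). SYVN1, an ER ubiquitin ligase, rose in control cells (0.72, adjusted p = 0.000575). Of 4 tested genes of the LXR axis, sterol sensors and their targets, 0 passed at high ERN2 in either state. Their median log2 fold change was -0.08 in control cells and -0.67 under thapsigargin. There LPCAT3 (-0.73, adjusted p = 0.0131) and ABCG1 (-3.01, adjusted p = 0.0123) lay close to the threshold. ABCG1 went from a mean of 1.21 CPM to 0.133. Of 19 further fatty acid genes tested in control cells 6 fell and none rose. ACSL3, an acyl-CoA synthetase of the ER and lipid droplets, had -2.01 (SE 0.127, adjusted p = 4.25e-07), and SLC25A1, the mitochondrial citrate carrier, -1.27 (SE 0.16, adjusted p = 0.000127). Both fell under thapsigargin too (log2 fold changes -1.72 and -2.00). The others were ELOVL5 (-0.52), SCD5 (-0.59), TECR (-0.56) and HSD17B12 (-0.71), which take part in elongating or desaturating fatty acids at the ER. Under thapsigargin 4 of 20 fell, with SCD5 (-0.97) and TECR (-0.996) beside the former pair. Thapsigargin without ERN2 raised DHDDS (0.74), SYVN1 (1.55), NR1H3 (0.71), ACACB (0.57) and LPIN2 (0.65) and lowered SCD5 (-0.50), and at low ERN2 it raised SYVN1 (1.12).

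Within groups, several members moved together. Over deviations from the group means in the 18 libraries, SREBF2 and FADS2 were the most alike pair (r = 0.95), and MVD was alike to LSS and to FASN (r = 0.93 each) and HMGCS1 to ELOVL6 (r = 0.91). HMGCS1 and PMVK were the least alike (r = -0.89). SREBF2, FADS2, MVD, LSS and FASN have 57.1% to 65.3% GC and PMVK 59.5%, whereas HMGCS1 and ELOVL6 have 40.2% and 41.2%. All genes of a library share its preparation and depth, so these correlations over libraries are given as descriptions. The difference between GC-rich and GC-poor members was largest in High ERN2, stress replicates 1 and 3, as given above, and in Low ERN2, control replicate 1, at -0.31. INSIG1 was most like IDI1 (r = 0.69), and SCD most like SQLE (r = 0.83).

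Several members overlap neighbours. Whether reads were counted by strand is not given in the sources used here, so reads in the shared bases cannot be assigned with certainty. FADS1 and FADS2 share 490 exonic bases on opposite strands of chromosome 11. ACAT2 shares 1141 exonic bases with SOD2 and 397 with TCP1, MVK 306 with MMAB, SREBF1 556 with RAI1, and TM7SF2 16 with VPS51. RAI1, the neighbour of the low-count SREBF1, was at 120.3 to 128 CPM in No ERN2, control and 129.9 to 158 in High ERN2, control (log2 fold change 0.15, SE 0.109, adjusted p = 0.372). FDPS has 8 annotated pseudogenes, CYP51A1 has 3, and SCD and FADS2 have 1 each. The 9 members called in no comparison were PMVK, ACAT2, LSS, CYP51A1, EBP, LBR, INSIG2, ACLY and ACSS2.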

How the data were processed

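Gene counts were deposited as 1 table of whole numbers, which the authors made with the VIPER workflow and STAR on hg38 from stranded mRNA libraries; the aligner version, annotation and strand setting are not given in the sources used here. All columns of samples were used (0 were left out). Members and gene lists were chosen with earlier results of these data known. Each comparison was fitted to its own groups with edgeR 4.0.16 in R 4.3.3 (TMM, filterByExpr with a minimum count of 10, quasi-likelihood F test, two-sided), the p-values of every tested gene adjusted by Benjamini-Hochberg, and a threshold of 0.01. The SE is the log2 fold change over the square root of F. Members past the threshold are given with every library of the groups compared, the others by range and count; members named without passing were chosen after their values were seen. The fits were tested on simulated data. Alternatives were DESeq2 1.42.0, other scalings, no filter, a threshold of 0.05, all 6 groups, the replicate block, each library left out and, added after seeing the data, a GC correction (loess, span 0.3). Same-numbered libraries were taken as paired where all 3 correlations of their deviations exceeded 0.1, which held for Low against No ERN2 under thapsigargin alone (0.506, 0.448 and 0.592). No libraries of a group differed by less than sampling noise (chi-square per degree of freedom 6.99 to 60.2). Gene positions, GC and coding sequences came from GENCODE 29, promoters from RefSeq. Some genes of the pathway lists are not reported here. Counting error is only part of the error between libraries.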

Additional observations from a re-analysis of the deposited data

How the results depend on the processing

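Of the 47 gene results past the threshold none reversed direction, 20 passed under every alternative and 27 failed under at least 1; 503 of 611 gene results under an alternative stayed past the threshold and 108 did not. Of the 81 counts under alternatives other than leaving out a library, 49 stayed within 1.5 times the reported count. Percentages in brackets below are of all genes in that fit. For Low against No ERN2 in control cells, 1 member passed at an adjusted p of 0.05 (0.759%), 4 by DESeq2 (1.5%) and 4 without the filter (3.14%). With the replicate block 1 passed (0.855%), and 1 with the GC correction (0.807%). For High against No ERN2 in control cells, 9 passed with the block (5.19%). For High against Low ERN2, 12 passed at 0.05 (5.75%), 12 by DESeq2 (3.11%) and 9 without the filter (3.2%). With all 6 groups 10 passed (4.18%), with the block 16 (8.41%) and with the GC correction 14 (5.6%). For thapsigargin without ERN2, 13 passed at 0.05 (22.6%), 4 with all 6 groups (8.47%) and 13 with the block, which called 24.8% of all genes. At low ERN2 the counts were 5 at 0.05 (6.91%), 5 by DESeq2 (4.13%) and 4 without the filter (2.66%). They were 4 with all 6 groups (4.5%), 5 with the GC correction (4.25%) and 11 with the block. The block there called 24.8% of all genes, and its members were 7 higher and 4 lower (LSS, EBP, FASN and FADS2). At high ERN2 the counts were 4 at 0.05 (3.42%), 4 by DESeq2 (2.87%) and 4 without the filter (1.51%). They were 7 with all 6 groups (6.26%) and 5 with the GC correction (5.18%). For Low against No ERN2 under thapsigargin, 3 passed with the block, where the numbers pair the libraries, and 2 with the block and the GC correction. For the interaction at high ERN2, 2 passed at 0.05, 2 by DESeq2, 1 with all 6 groups and 2 with the GC correction. In the other comparisons not all 3 correlations of same-numbered libraries exceeded 0.1, and the labels do not say whether these libraries belong together. For thapsigargin against control the correlations were 0.078, 0.287 and 0.365 without ERN2, and 0.619, -0.036 and 0.572 at low ERN2. With the block 14 members passed for High against No ERN2 under thapsigargin, and 0 for thapsigargin at high ERN2 and for each interaction. Leaving out each library in turn gave 0 to 6 members for Low against No ERN2, 9 to 16 for High against No and 0 to 7 for High against Low in control cells. It gave 3 to 9, 0 to 4 and 0 to 11 for thapsigargin at no, low and high ERN2, and 0 to 0 and 8 to 19 for Low and High against No ERN2 under thapsigargin. For the interactions it gave 0 to 0 at low and 0 to 3 at high ERN2. The share of all genes called moved too, from 0.0% to 3.37% for High against Low ERN2 in control cells. It ran from 5.23% to 27.2% for High against No ERN2 under thapsigargin. The cause of these differences was not tested. When scaled by library totals and not by TMM factors, the median log2 value of all genes in the high ERN2 interaction was -0.14 in place of 0.04, and no member passed there. SREBF1, with 25 counts in its lowest library, is the member that depth limits most.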
